A study of Mus musculus with 30 samples.

Results

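The mouse solute carriers for sugars, amino acids, peptides and monocarboxylates were followed in the terminal ileum and lung of mice that overexpress TL1A, a cytokine of the tumour necrosis factor superfamily encoded by Tnfsf15. Members were all rows of the gene tables whose symbol belongs to the families Slc1, Slc2, Slc3, Slc5, Slc6, Slc7, Slc15, Slc16, Slc36, Slc38 or Slc43, which gave 109 of 24062 rows. Of these, 105 were transporter genes: 20 for sugars and related polyols or urate, 52 for amino acids, 5 for peptides, 6 for monocarboxylates such as lactate and butyrate, and 22 for other solutes such as vitamins, creatine or amine transmitters. The other 4 rows (Slc2a4rg-ps, Slc6a19os, Slc7a6os and Slc36a1os) only share the name and encode no transporter. A count was present for 108 of the 109 rows in ileum and for 107 in lung. Enough counts for testing were present for 89 in ileum and 79 in lung.

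RNA-seq counts came from 30 libraries, 16 of ileum and 14 of lung, in mice that the labels place on a C57bl/6 background. The group called Mem overexpressed a membrane-restricted TL1A that carries the deletion named Delta 69-93, and the group called Mem+Sol overexpressed TL1A in its membrane-bound and its soluble form. The controls are called WT, but their label also names TL1A driven by the CD2 promoter, so what the controls carry cannot be told from it; the CD2 promoter is known for driving expression in lymphocytes. Ileum had 5 WT, 5 Mem and 6 Mem+Sol libraries, all sequenced as batch 3. Males and females numbered 4 and 1 in ileal WT, 3 and 2 in Mem, and 3 and 3 in Mem+Sol. Lung had 5 WT, 5 Mem and 4 Mem+Sol libraries, spread over batches 1 and 2 in each genotype. There the males and females numbered 3 and 2 in WT, 2 and 3 in Mem, and 1 and 3 in Mem+Sol. Ages are not given. Each group holds libraries of both sexes, so some came from different animals, but the labels do not say that every library is an animal of its own, and each p-value reflects only the spread among these libraries, part of which may be technical.

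Dietary sugars, amino acids and small peptides cross the intestinal wall through enterocytes. At the lumen, carriers in the brush border take up glucose (Slc5a1), fructose (Slc2a5), neutral amino acids (Slc6a19), imino acids (Slc6a20a), cationic amino acids and cystine (the Slc3a1 and Slc7a9 heterodimer) and di- and tripeptides (Slc15a1). At the basal side, Slc2a2, the Slc3a2 heterodimers with Slc7a7 or Slc7a8, Slc16a10 and Slc43a2 pass them on to the blood. In lung the families mostly serve the cells' own supply, and a few epithelial carriers (Slc5a1, Slc6a14, Slc15a2) take solutes back from the lining fluid.

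Library depth was 4295039 to 13226790 counts in ileal WT, 10632559 to 32653753 counts in ileal Mem, 12482151 to 36133187 counts in ileal Mem+Sol and 22259203 to 39089383 counts in lung, so low-level genes were least precisely measured in ileal WT. Levels are in CPM, the counts scaled to a library of fixed size, on library sizes scaled by the trimmed mean of M values. The members took 0.621 to 0.859% of the counts in ileal WT libraries, 0.539 to 0.686% in Mem and 0.416 to 0.577% in Mem+Sol. Markers of ileal enterocytes summed to 5756 to 8534 CPM in ileal WT and to at most 0.536 CPM in lung WT, while alveolar type 2 markers summed to 19430 to 23520 CPM in lung WT, so each tissue carried its own markers. Tnfsf15 was higher than WT in lung by 1.57 ± 0.18 (log2, SE) in Mem (edgeR adjusted p = 0.000242) and by 3.37 ± 0.20 in Mem+Sol (edgeR adjusted p = 9.92e-07). In ileum Tnfsf15 differed from WT in neither group (edgeR adjusted p = 0.832 and 0.336), so the labels of the ileal libraries could not be checked on the transgene. Along the first principal component of the ileum, which held 44.7% of the variance, Mem replicate 1 lay at -39.9, apart from the other Mem libraries (23.2 to 30.2) and beside the WT libraries (-84 to -51.3), and Mem+Sol replicate 1, at 4.37, was the Mem+Sol library nearest to WT. Results that change without these libraries are given both ways.

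In WT ileum the most abundant member per length of transcript was Slc5a1, the sodium-glucose cotransporter, at 227 ± 54.6 CPM per kilobase (SD, n = 5). Slc7a9 followed at 149 ± 23.1 CPM per kilobase. The creatine carrier Slc6a8 (137 ± 20.8) was within the spread of Slc7a9 on the same scale. Slc15a1 (112 ± 54.0), Slc6a19 (94.0 ± 25.9) and Slc3a1 (90.5 ± 45.3) came next and overlapped one another within their spread. The leading ileal members were thus mostly brush-border carriers. In WT lung the order was another one, led by Slc43a3, a carrier of purine bases, at 90.8 ± 6.13 CPM per kilobase, and by Slc3a2, the shared heavy chain, at 69.9 ± 7.34. Slc1a5, a glutamine exchanger, followed at 54.6 ± 3.78 CPM per kilobase in lung. Slc16a9, at 45.5 ± 6.87, and the taurine carrier Slc6a6, at 40.0 ± 6.19, were within each other's spread.

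Several ileal leaders were barely present in lung. Slc5a1 was at 1.27 ± 0.14 CPM per kilobase in lung WT, Slc15a1 at 1.10 ± 0.31, Slc3a1 at 0.251 ± 0.0392 and Slc6a19 at 0.139 ± 0.0350. Slc7a9 had too few counts in lung for a test. In the other direction Slc6a14, which carries neutral and cationic amino acids, was at 30.8 ± 4.86 CPM per kilobase in lung and at 12.2 ± 17.2 in ileum, where its spread exceeded its mean, and the peptide carrier Slc15a2 was at 6.77 ± 2.30 in lung and 0.757 ± 0.779 in ileum. All ileal libraries belong to a batch of their own, so tissue and batch cannot be told apart and levels were not tested between tissues.

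**Figure D1:**
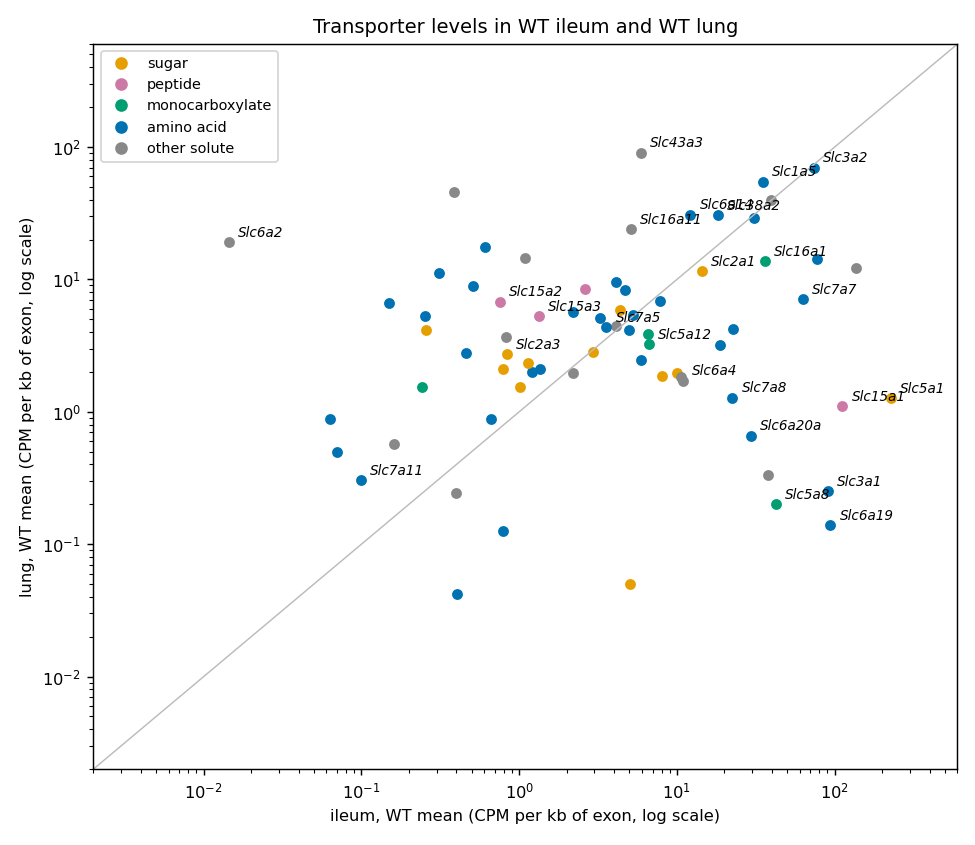
Mean level per kilobase of exon in WT ileum (horizontal axis, log scale) against WT lung (vertical axis, log scale) for the 72 transporters tested in both tissues, each point a gene coloured by solute class. Slc5a1, Slc15a1 and Slc6a19 lie far on the ileal side, and Slc43a3 on the lung side.

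In Mem+Sol ileum the brush-border carriers Slc15a1, Slc6a19, Slc6a20a, Slc3a1 and Slc7a9 and the basal carriers Slc7a7, Slc16a10 and Slc43a2 were lower than in WT, while the brush-border carriers Slc5a1 and Slc1a1 did not pass the test. The minor sodium-coupled carriers Slc5a4b, Slc5a4a and Slc5a12 were lower as well. Among those that were higher were the glucose carrier Slc2a1, the lactate exporter Slc16a3 and the amino acid exchanger Slc1a4. Of the 89 members tested, 17 rose and 27 fell, which is 49.4% beside 28.7% of all 14959 genes tested (edgeR quasi-likelihood test, Benjamini-Hochberg adjusted over all genes). The members rose in 19.1% of cases beside 16.6% of all genes and fell in 30.3% beside 12.1%. The median log2 fold change was -0.03 over the members and 0.01 over all genes. In bulk tissue, fewer cells of a type and less RNA per cell cannot be told apart. By class, 3 sugar carriers rose and 4 fell of 18 tested, 8 amino acid carriers rose and 13 fell of 42, 1 peptide carrier fell of 4, 3 monocarboxylate carriers rose and 3 fell of 6, and 3 carriers of other solutes rose and 5 fell of 17. The last change was in Slc2a4rg-ps, no transporter, which fell by 1.21 ± 0.32 on the log2 scale (edgeR adjusted p = 0.0112). Of the 44 changes, 27 passed under every alternative tried and none changed sign. Summed over its 52 genes, the amino acid class went from 3927 ± 665 CPM in WT (SD, n = 5) to 2057 ± 266 in Mem+Sol (n = 6). The 5 peptide carriers together went from 574 ± 262 to 218 ± 41.9 CPM. The sugar class, which Slc5a1 dominates, was at 1246 ± 264 CPM in WT against 1357 ± 413 in Mem+Sol.

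**Figure D2:**
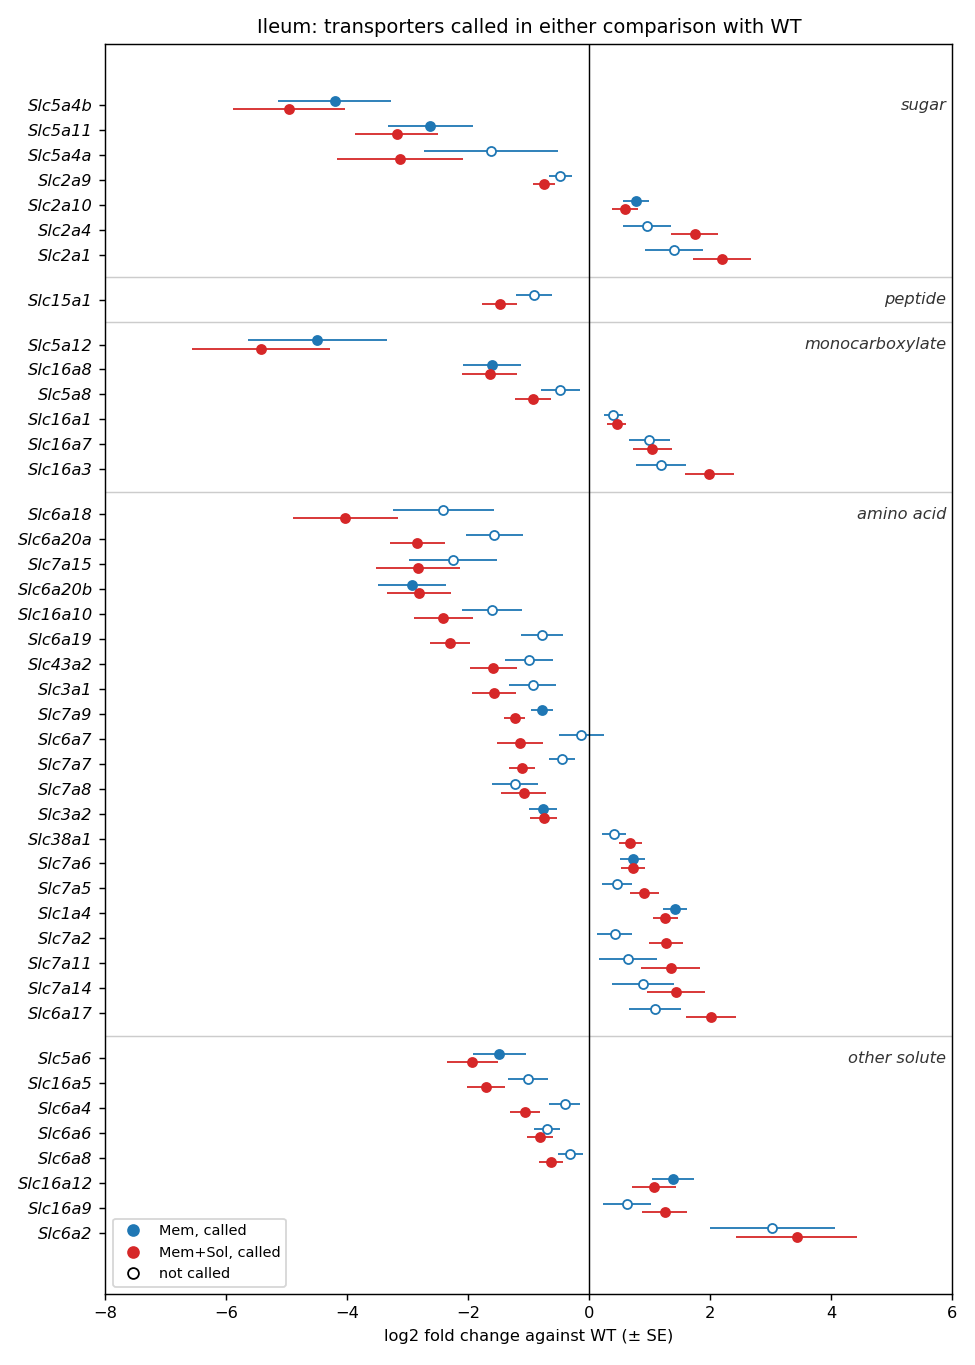
Log2 fold change against WT with its SE (horizontal axis) for the ileal transporters that passed the test in either comparison, grouped by solute class, Mem in blue and Mem+Sol in red, filled where the test was passed. Both comparisons share the WT libraries, so their likeness is not a result; Slc5a12 and Slc5a4b lie farthest to the left, and the fitted value of Slc6a2 rests on 3 WT counts.

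Cell type markers moved in the same libraries. Smooth muscle markers rose in 6 of 6 tested, with a summed level of 2015 to 4516 CPM in WT and 10280 to 49170 in Mem+Sol; Mem+Sol replicate 4 (31770) and replicate 6 (49170) were highest, and the other 4 lay between 10280 and 12560. Ileal enterocyte markers fell in 4 of 5 (the bile acid genes Fabp6, Slc10a2, Slc51a and Slc51b), from 5756 to 8534 CPM in WT to 191 to 1410 in Mem+Sol. General epithelial markers rose in 1 and fell in 2 of 7, with sums of 11320 to 14960 and 7433 to 14400 CPM, whose ranges overlap. All 5 tuft cell markers rose (39.6 to 67.7 against 202.8 to 441 CPM), as did 3 of 5 endothelial markers (42.9 to 138 against 176 to 287 CPM). Leukocyte markers rose in 1 and fell in 1 of 6 (82.2 to 183 against 102.5 to 324 CPM), and goblet markers likewise in 1 and 1 of 6 (12240 to 17340 against 9514 to 27400 CPM). Proximal small intestine markers summed to 1770 CPM in WT replicate 2 and to 119 to 201 in the other WT libraries, against 193 to 1250 in Mem+Sol; of the 4 tested, Fabp1 rose by 3.32 ± 0.60 and Lct fell by 6.06 ± 1.73 on the log2 scale (edgeR adjusted p = 0.00104 and 0.0159). WT replicate 2, the shallowest library at 4295039 counts, is also the highest WT library for many members. Among sugar carriers these include Slc5a4b, Slc5a4a, Slc5a11, Slc2a2, Slc2a5 and Slc2a9. Others include Slc15a1, Slc7a8, Slc7a15, Slc43a2, Slc3a2, Slc16a10, Slc6a7, Slc5a6, Slc16a5, Slc6a4 and Slc6a8. It is not the highest for Slc6a19, Slc6a20a, Slc3a1, Slc7a9 or Slc5a8. Of the exocrine pancreas list 1 gene was tested, Cela1, which rose (sums of 4.43 to 14.7 against 10.4 to 38.9 CPM, 1 of the 7 genes at 0). Of the lung lists, 1 of 2 tested alveolar type 2 markers rose, Sftpa1 (sums of 37.7 to 74.1 against 21.4 to 67.2 CPM), and the 1 airway marker tested did not pass. No marker of the smooth muscle, enterocyte, epithelial, proximal, tuft, endothelial, leukocyte or goblet lists was at 0. The part of these shifts in the transporter changes was not tested.

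Among sugar carriers, the main route for glucose did not pass the test. Slc5a1 was at 817, 1048, 1173, 602 and 1019 CPM in the 5 WT libraries and between 345 and 1362 CPM, with a median of 829.1, in Mem+Sol. The WT range lay inside that of Mem+Sol. Slc2a2, the basal glucose exit, had 18.1 CPM in WT replicate 2 and 0 to 0.607 in the other WT libraries, and 1.77 to 29.9 CPM in Mem+Sol, median 6.05. Slc2a5, the fructose carrier, had mean levels of 36.5 ± 24.4 CPM for WT and 27.5 ± 17.6 for Mem+Sol (SD), and neither Slc2a2 nor Slc2a5 passed the test. Slc2a3, a high-affinity glucose carrier, was at 6.04 ± 3.28 and 10.2 ± 3.38 CPM and did not pass either.

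The minor sodium-coupled members fell. Slc5a4b, a paralogue of Slc5a1, was at 1.25, 70.2, 4.82, 7.26 and 11.3 CPM in WT and at 0.0266 to 1.25 in Mem+Sol, median 0.249. WT replicate 2 was far above the rest, and the lowest WT library and the highest Mem+Sol library (replicate 1) were level. The change was -4.97 ± 0.92 (log2, SE; edgeR adjusted p = 0.00119). Its neighbour Slc5a4a was at 2.80, 19.2, 5.86, 3.31 and 13.8 CPM in WT and 0.0798 to 4.49 in Mem+Sol, median 0.231, again with replicate 1 at the top and inside the WT range. It fell by 3.13 ± 1.04 on the log2 scale (edgeR adjusted p = 0.0327), and leaving out Mem+Sol replicate 3, 4 or 6 or WT replicate 2 or 5 ended the call. These genes share under 1% of their 50-base windows (0.0499% of those of Slc5a4a), so reads can mostly tell them apart. Slc5a11, which carries myo-inositol, was at 13.3, 79.5, 26.2, 18.9 and 41.1 CPM in WT and 0.681 to 8.91 in Mem+Sol, median 2.29, with no overlap. Its change was -3.19 ± 0.68 (log2, SE; edgeR adjusted p = 0.00297). Slc2a9, a urate carrier of the sugar family, fell by 0.75 ± 0.18 on the log2 scale, from 40.9 ± 8.48 to 22.2 ± 4.77 CPM (edgeR adjusted p = 0.00675).

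In the other direction 3 sugar carriers rose. Slc2a1, the basal glucose carrier of most cells, was at 55.2, 43.5, 55.5, 60.9 and 35.9 CPM in WT and 83.8 to 554 in Mem+Sol, median 136. Every Mem+Sol library lay above WT, with replicates 3 (353) and 4 (554) far above the rest. The change was 2.20 ± 0.48 (log2, SE; edgeR adjusted p = 0.00336). Slc2a4, the insulin-responsive carrier of muscle and fat, was at 45.8, 28.8, 15.8, 53.5 and 31.1 CPM in WT and 50.04 to 278 in Mem+Sol, median 85.7. Its highest value was in replicate 6, which also had the highest smooth muscle sum, and the lowest Mem+Sol values lay inside the WT range. It rose by 1.74 ± 0.39 (log2, SE; edgeR adjusted p = 0.00373). Slc2a10 rose by 0.59 ± 0.21 (log2, SE; edgeR adjusted p = 0.0462), a call that leaving out any of 12 libraries ended (Mem replicates 2 to 5, Mem+Sol replicates 2, 3, 4 and 6, and WT replicates 2 to 5).

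For peptides, Slc15a1, the proton-coupled carrier of di- and tripeptides in the brush border, was at 341, 1004, 434, 427 and 529 CPM in WT and 119 to 244 in Mem+Sol, median 188. No Mem+Sol library reached the lowest WT library, and WT replicate 2 stood above the others. The change was -1.48 ± 0.29 (log2, SE; edgeR adjusted p = 0.00172), which is 0.358-fold. The other 3 peptide carriers tested did not pass: Slc15a2 was at 5.57 ± 5.74 CPM in WT against 6.15 ± 5.25 in Mem+Sol, the lysosomal Slc15a3 at 7.36 ± 1.90 and 12.8 ± 7.12, and the lysosomal Slc15a4 at 13.8 ± 2.71 and 14.3 ± 3.22 (SD, n = 5 and 6).

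Among amino acid carriers of the brush border and their close relatives, 7 fell. Slc6a19, the main sodium-coupled carrier of neutral amino acids, was at 294, 513, 498, 406 and 643 CPM in WT and 43.4 to 169 in Mem+Sol, median 83.8. The groups did not overlap, and the highest Mem+Sol value was in replicate 1. It fell by 2.30 ± 0.33 on the log2 scale (edgeR adjusted p = 0.000259). Slc6a20a, the proline and imino acid carrier, was at 79.6, 144, 99.2, 105 and 172 CPM in WT and 6.41 to 49.9 in Mem+Sol, median 8.07. Mem+Sol replicate 1 held the 49.9 and the other 5 were at 11.1 or below, still with no overlap. Its change was -2.84 ± 0.46 (log2, SE; edgeR adjusted p = 0.000521). The paralogue Slc6a20b, at 1.55 to 4.93 CPM in WT and 0.0454 to 0.990 in Mem+Sol, changed by -2.81 ± 0.53 (log2, SE; edgeR adjusted p = 0.00131). Slc6a20b shares 10.1% of its 50-base windows with Slc6a20a, and 21.1% of its exons lie opposite Sacm1l, so its low counts may include reads of either gene. Slc6a20a in turn shares 16.2% of its windows with Slc6a20b, and 13.8% of its exons lie opposite Gm17120.

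Slc3a1 and Slc7a9, the heavy and light chain of the cystine and cationic amino acid exchanger, both fell. Slc7a9 was at 304, 409, 447, 380 and 458 CPM in WT and 128 to 207 in Mem+Sol, median 168, with no overlap, and fell by 1.23 ± 0.18 on the log2 scale (edgeR adjusted p = 0.000251). Slc3a1 was at 105, 130, 242, 188 and 363 CPM in WT and 31.0 to 126 in Mem+Sol, median 57.1, and fell by 1.58 ± 0.36 on the log2 scale (edgeR adjusted p = 0.00435). Mem+Sol replicate 4, at 126, reached into the WT range of Slc3a1. On the opposite strand Prepl overlaps 26.5% of the exons of Slc3a1, and without strand-aware counting reads of the pair cannot be told apart there. Slc6a18, a carrier of neutral amino acids, was at 8.10, 3.89, 5.86, 5.55 and 5.54 CPM in WT and 0 to 1.85 in Mem+Sol, median 0.0859, and changed by -4.03 ± 0.86 (log2, SE; edgeR adjusted p = 0.00293). Slc7a15, a light-chain relative, was at 53.8, 257, 80.5, 69.6 and 76.4 CPM in WT and 1.73 to 37.4 in Mem+Sol, median 10.2. WT replicate 2 was apart from the other WT libraries, yet all WT values were above Mem+Sol, and the change was -2.83 ± 0.70 (log2, SE; edgeR adjusted p = 0.0069).

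A further 6 amino acid carriers fell, most of them known from the basal side. Slc16a10, the exit route of aromatic amino acids, was at 101.1, 194, 111, 151 and 136 CPM in WT and 6.68 to 63.0 in Mem+Sol, median 18.8. It did not overlap between the groups and changed by -2.41 ± 0.49 (log2, SE; edgeR adjusted p = 0.00212). Slc43a2, an exit route of large neutral amino acids, went from 774 ± 335 to 227 ± 130 CPM (SD) and fell by 1.58 ± 0.38 on the log2 scale (edgeR adjusted p = 0.0063). Slc7a7, the cationic amino acid exit, went from 209 ± 33.7 to 96.4 ± 21.9 CPM and fell by 1.11 ± 0.21 (edgeR adjusted p = 0.00153). Its heavy chain Slc3a2 went from 259 ± 85.2 to 149 ± 17.5 CPM and fell by 0.76 ± 0.22 on the log2 scale (edgeR adjusted p = 0.0183), a call lost without Mem+Sol replicate 4 or 6 or WT replicate 2. Slc7a8, a neutral amino acid exchanger of the same heavy chain, was at 272 CPM in WT replicate 2 and 64.5 to 79.0 in the other WT libraries, against 29.6 to 74.2 in Mem+Sol, median 48.3. It fell by 1.09 ± 0.38 on the log2 scale (edgeR adjusted p = 0.0401), a call lost without any of 9 libraries (Mem replicates 2 to 5, Mem+Sol replicates 3 to 6 and WT replicate 2). Slc6a7, a proline carrier, fell by 1.14 ± 0.38 (edgeR adjusted p = 0.0325), lost without Mem+Sol replicate 4 or 6 or WT replicate 2.

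Of the amino acid carriers 8 rose. Slc1a4, an exchanger of alanine, serine and cysteine, was at 16.9, 19.4, 24.1, 15.4 and 16.6 CPM in WT and 34.5 to 67.6 in Mem+Sol, median 46.2. The groups did not overlap, and it rose by 1.26 ± 0.20 (log2, SE; edgeR adjusted p = 0.000504). Slc7a2, a carrier of arginine, was at 3.10 to 5.40 CPM in WT and 7.26 to 19.2 in Mem+Sol, median 11.4, and rose by 1.27 ± 0.29 (log2, SE; edgeR adjusted p = 0.00425). Slc7a5, the large neutral amino acid exchanger of dividing and activated cells, was at 13.2 ± 2.84 CPM in WT against 26.4 ± 9.03 in Mem+Sol and rose by 0.91 ± 0.24 (edgeR adjusted p = 0.0106). Slc6a17, a vesicular carrier of neurons, was at 4.40 to 11.9 CPM in WT and 10.4 to 76.3 in Mem+Sol, median 21.8, with the highest value in replicate 6, and rose by 2.01 ± 0.41 (edgeR adjusted p = 0.00234). Slc7a6, a cationic amino acid exchanger, rose by 0.72 ± 0.20 (edgeR adjusted p = 0.015), lost in 2 settings other than leaving out a library. Slc38a1, a glutamine carrier, rose by 0.68 ± 0.19 (edgeR adjusted p = 0.0159), lost without Mem+Sol replicate 6. Slc7a14, a lysosomal carrier, rose by 1.43 ± 0.47 (edgeR adjusted p = 0.0328), lost without Mem+Sol replicate 4 or 6 or WT replicate 1, 2, 3 or 4. Slc7a11, the cystine and glutamate exchanger, rose by 1.35 ± 0.49 (edgeR adjusted p = 0.0481), lost without any of 11 libraries (Mem replicates 2 to 5, Mem+Sol replicates 3 to 5 and WT replicates 1 to 4). Slc6a17, Slc7a14, Slc38a1 and Slc2a4 shared their highest value in replicate 6, the library with the highest smooth muscle sum.

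A further 21 amino acid carriers did not pass the test. Slc1a1, the brush-border carrier of glutamate and aspartate, was at 186 ± 46.3 CPM in WT against 193 ± 38.9 in Mem+Sol (SD). On the opposite strand 4430402I18Rik overlaps 31.9% of the exons of Slc1a1, so part of its counts could belong there. Slc1a5 was at 146 ± 19.8 and 157 ± 33.3 CPM. Slc6a14 ranged from 0.777 to 143 CPM over the WT libraries and from 0.223 to 58.1 over Mem+Sol, a spread that leaves little room to detect a difference. Slc38a2, a small neutral amino acid carrier, was at 162 ± 10.7 and 140 ± 18.9 CPM, and the lysosomal Slc36a1 at 44.0 ± 8.05 and 37.0 ± 7.29.

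Promoters are shown for 4 of the amino acid carriers that fell, of which 3 hold words known from sites of factors of the intestinal epithelium. These 4 were picked and do not stand for all members that fell, whose shares are given below. Each run gives the 250 bases before the transcription start, 5′ to 3′ on the gene's strand, from RefSeq on build GRCm38.p6, with the 5 words searched, listed after them, in capitals: Slc6a20a (chr9:123678833-123679082, minus strand), Slc6a20b (chr9:123632539-123632788, minus strand), Slc3a1 (chr17:85028097-85028346, plus strand) and Slc16a10 (chr10:40142255-40142504, minus strand).
Slc6a20a: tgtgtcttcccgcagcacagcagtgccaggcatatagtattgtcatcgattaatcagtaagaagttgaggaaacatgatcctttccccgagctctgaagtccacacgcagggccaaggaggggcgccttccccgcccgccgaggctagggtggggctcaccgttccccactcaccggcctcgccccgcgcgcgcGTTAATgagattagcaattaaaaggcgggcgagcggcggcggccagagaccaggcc
Slc6a20b: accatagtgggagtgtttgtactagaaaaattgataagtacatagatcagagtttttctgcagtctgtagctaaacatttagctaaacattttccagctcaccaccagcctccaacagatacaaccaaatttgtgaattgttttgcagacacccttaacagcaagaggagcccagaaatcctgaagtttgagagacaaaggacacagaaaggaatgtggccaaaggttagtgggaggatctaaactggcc
Slc3a1: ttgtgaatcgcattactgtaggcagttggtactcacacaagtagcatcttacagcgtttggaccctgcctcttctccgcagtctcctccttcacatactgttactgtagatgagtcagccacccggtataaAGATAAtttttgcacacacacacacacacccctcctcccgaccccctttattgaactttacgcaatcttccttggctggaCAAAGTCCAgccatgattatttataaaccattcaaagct
Slc16a10: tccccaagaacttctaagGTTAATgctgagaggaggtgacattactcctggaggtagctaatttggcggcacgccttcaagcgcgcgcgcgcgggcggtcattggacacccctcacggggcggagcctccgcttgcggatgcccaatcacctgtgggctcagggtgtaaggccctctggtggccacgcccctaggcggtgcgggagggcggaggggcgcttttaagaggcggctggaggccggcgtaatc
Slc6a20a holds GTTAAT, known from sites of HNF1, 56 bases before its start, and Slc16a10 holds it 232 bases before. Slc3a1 holds CAAAGTCCA, known from sites of HNF4, 39 bases before its start and AGATAA, known from sites of GATA factors, 119 bases before. Slc6a20b holds none of the searched letters.

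Across the members, 79 of 109 matched a RefSeq promoter, and 5 words were searched on both strands in the 250 bases before the start: GTTAAT, known from sites of HNF1, CAAAGTCCA, known from sites of HNF4, TTTATG, known from sites of CDX factors, AGATAA, known from sites of GATA factors, and ACGTG, the core of the hypoxia response element. GTTAAT was in 4 of the 20 members that fell and had a promoter (20%), in 0 of 11 that rose, in 2 of 33 tested but not called (6.06%) and in 7.49% of all 27025 genes. CAAAGTCCA was in 1 of 20 that fell (5%) and 0.451% of all genes, TTTATG in 1 (5%) and 12.4%, and AGATAA in 3 (15%) and 11.4%, and none of the 3 words was in a member that rose. ACGTG was in 6 of 11 that rose (54.5%), 2 of 20 that fell (10%), 7 of 33 not called (21.2%) and 18.5% of all genes. No word contains another, and a match only describes the letters present.

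Of the 6 monocarboxylate carriers, all changed. Slc5a12, a low-affinity sodium-coupled lactate carrier, was at 26.1, 31.3, 19.0, 16.2 and 41.4 CPM in WT and 0 to 3.23 in Mem+Sol, median 0.137. No Mem+Sol library came near WT, the highest being replicate 1, and the change was -5.43 ± 1.14 (log2, SE; edgeR adjusted p = 0.00259). Slc5a8, the high-affinity carrier of butyrate and lactate, was at 169, 112, 314, 220 and 310 CPM in WT and 51.7 to 160 in Mem+Sol, median 123. These ranges overlapped, and the fall of 0.93 ± 0.30 on the log2 scale (edgeR adjusted p = 0.0312) was lost without Mem+Sol replicate 1 or 6 or WT replicate 3 or 5. Slc16a8, at 2.35 ± 0.934 CPM in WT against 0.732 ± 0.640 in Mem+Sol, fell by 1.65 ± 0.45 (edgeR adjusted p = 0.0122), lost without WT replicate 1. Slc16a3, the lactate exporter of glycolytic cells, was at 32.8, 34.7, 41.7, 42.8 and 23.3 CPM in WT and 42.8 to 279 in Mem+Sol, median 119. Its lowest Mem+Sol library was level with the highest WT library, and replicates 2 and 4 were the highest, at 201 and 279. It rose by 1.99 ± 0.41 (log2, SE; edgeR adjusted p = 0.00235). Slc16a7 rose by 1.04 ± 0.33 (edgeR adjusted p = 0.0264), lost without Mem+Sol replicate 6 or WT replicate 1, 3 or 4. Slc16a1, the general lactate carrier, was at 160 ± 28.0 and 210 ± 25.7 CPM and rose by 0.45 ± 0.16 (edgeR adjusted p = 0.0415), lost without any of 9 libraries (Mem replicate 3, Mem+Sol replicates 2, 3, 4 and 6, and WT replicates 1, 2, 3 and 5). The class sum was 452 ± 90.6 CPM in WT against 468 ± 126 in Mem+Sol.

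ACGTG was in 6 of the 11 members that rose and had a promoter, beside 18.5% of all genes, and a part of hypoxia was not tested. Promoters of Slc2a1 and Slc16a3, picked from these 6, are shown with ACGTG in capitals (RefSeq, GRCm38.p6, 250 bases before the start): Slc2a1 (chr4:119108495-119108744, plus strand) and Slc16a3 (chr11:120948817-120949066, plus strand).
Slc2a1: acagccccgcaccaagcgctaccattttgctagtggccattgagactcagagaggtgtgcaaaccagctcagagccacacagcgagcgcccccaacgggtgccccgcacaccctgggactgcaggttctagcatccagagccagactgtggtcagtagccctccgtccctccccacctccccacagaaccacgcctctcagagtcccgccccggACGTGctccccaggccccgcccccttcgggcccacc
Slc16a3: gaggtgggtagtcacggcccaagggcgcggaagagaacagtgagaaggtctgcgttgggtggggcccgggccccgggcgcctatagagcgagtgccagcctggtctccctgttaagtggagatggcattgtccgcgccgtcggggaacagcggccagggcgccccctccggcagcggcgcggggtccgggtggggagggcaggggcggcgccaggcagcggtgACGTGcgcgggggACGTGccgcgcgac
Slc2a1 holds the word 36 bases before its start, and Slc16a3 holds it 27 and 14 bases before.

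Among carriers of other solutes, 5 fell. Slc5a6, the sodium-coupled carrier of biotin and pantothenate, was at 25.4, 69.7, 43.4, 32.2 and 41.2 CPM in WT and 4.54 to 20.3 in Mem+Sol, median 8.21. The groups did not overlap and the change was -1.94 ± 0.42 (log2, SE; edgeR adjusted p = 0.00319). It shares 16.4% of its 50-base windows with the gene Gm6157, so part of its reads could be placed there. Slc16a5 went from 140 ± 20.1 to 41.4 ± 22.2 CPM (SD) and fell by 1.71 ± 0.32 (edgeR adjusted p = 0.00114). Slc6a4, the serotonin carrier, which in the gut clears serotonin into enterocytes, was at 31.0, 77.2, 49.3, 37.4 and 50.9 CPM in WT and 17.6 to 32.1 in Mem+Sol, median 19.5. Only the lowest WT library overlapped, and it fell by 1.07 ± 0.25 on the log2 scale (edgeR adjusted p = 0.00464). The taurine carrier Slc6a6 fell by 0.81 ± 0.21 (edgeR adjusted p = 0.00859). The creatine carrier Slc6a8 fell by 0.64 ± 0.20 (edgeR adjusted p = 0.0258), lost without Mem+Sol replicate 1 or 6 or WT replicate 2 or 3. Of the 3 that rose, Slc6a2, the noradrenaline carrier of sympathetic nerves, had 3 counts over all WT libraries and 148 over Mem+Sol, a ratio of CPM of 17.6 with an exact Poisson interval of 5.89 to 86.1 that covers counting error only (edgeR adjusted p = 0.0178). The call of Slc6a2 was lost in 1 setting other than leaving out a library. Slc16a12 rose by 1.07 ± 0.36 (edgeR adjusted p = 0.0349), lost without any of 7 libraries (Mem replicate 5, Mem+Sol replicates 3 and 6, and WT replicates 1 to 4), and Slc16a9 by 1.24 ± 0.37 (edgeR adjusted p = 0.0203), lost without Mem+Sol replicate 6.

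**Figure D3:**
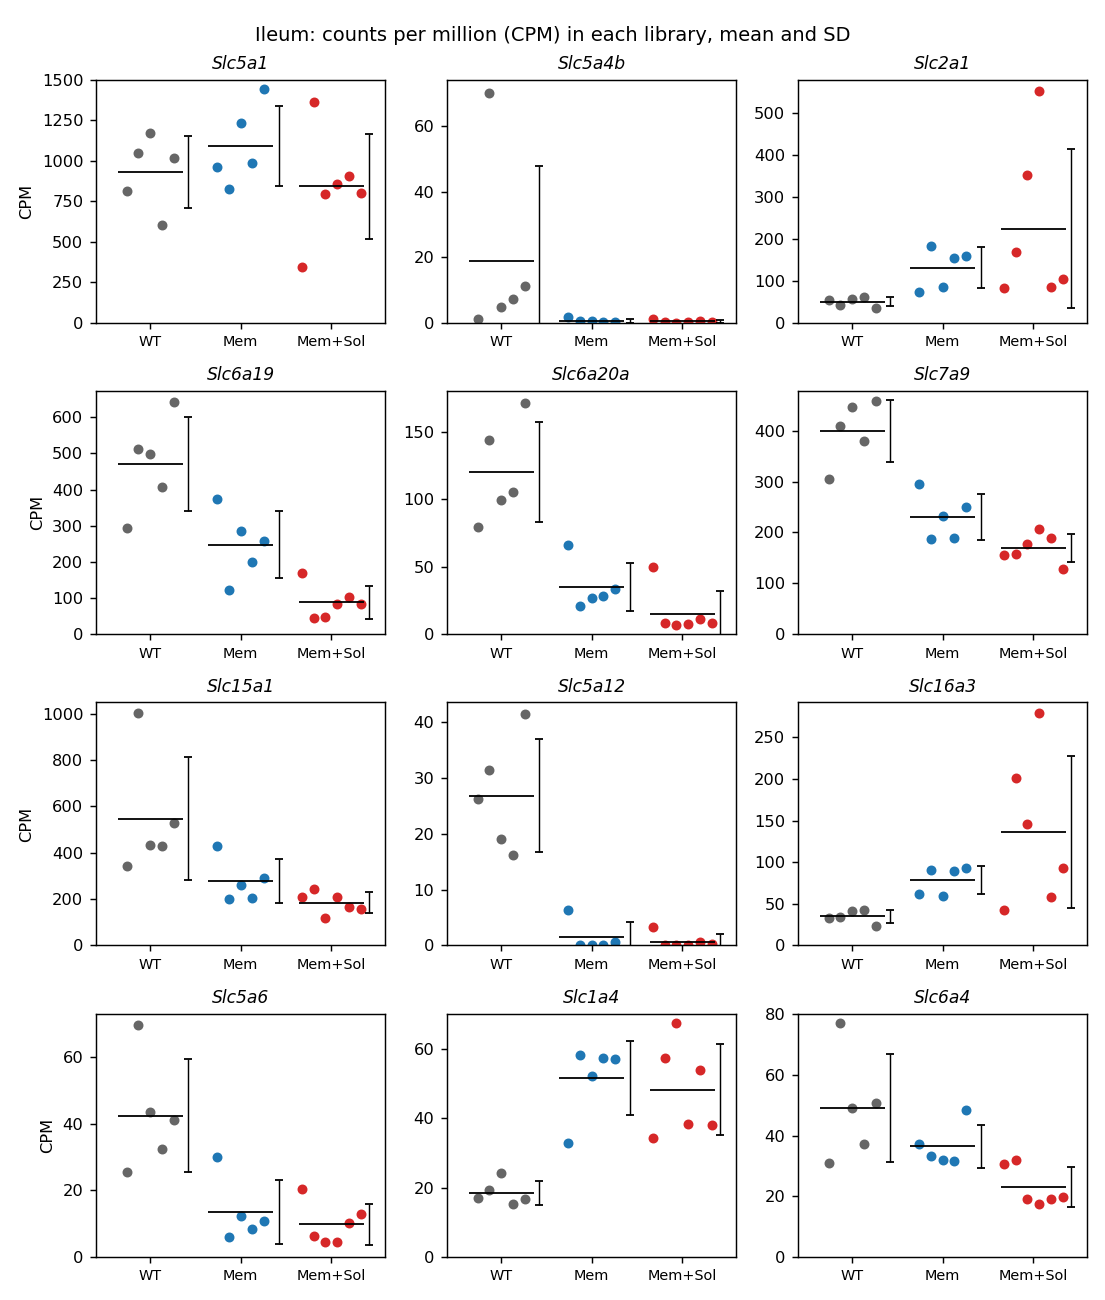
Level in CPM of selected transporters in each ileal library (points, vertical axis from 0) by genotype, with a line for the mean and a bar for the SD, cut at 0 where the SD exceeds the mean. Slc6a19, Slc6a20a and Slc15a1 are lower in every Mem+Sol library than in any WT library, and Slc2a1 is higher.

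Genes that work beside the transporters were taken from lists by role. Of 12 brush-border digestive enzymes, which release the sugars, amino acids and peptides, 10 fell in Mem+Sol and none rose, with summed levels of 10960 to 21310 CPM in WT and 2804 to 6374 in Mem+Sol. They included the aminopeptidase Anpep (-2.41 ± 0.57, log2, SE; edgeR adjusted p = 0.00518) and the dipeptidyl peptidase Dpp4 (-1.80 ± 0.29; edgeR adjusted p = 0.000486). Of 12 tested partners and driving forces of transport, 3 fell, among them the scaffolds Slc9a3r1 (-1.39 ± 0.29, log2, SE) and Pdzk1 (-2.32 ± 0.57; edgeR adjusted p = 0.00257 and 0.00694). The sodium pump did not pass. Of 8 tested genes of sugar handling in enterocytes, Hk1 rose by 1.75 ± 0.32 (edgeR adjusted p = 0.00108) and the genes that fell included G6pc, Fbp1 and Mlxipl.

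In Mem ileum the shifts ran over fewer genes that passed. Of 89 members, 4 rose and 8 fell, which is 13.5% beside 8.06% of all genes tested (edgeR; 5% of all genes rose and 3.06% fell), with a median log2 fold change of 0.11 over the members and 0.0006 over all genes. The count depended on single libraries: it was 29 without Mem replicate 1, 20 without Mem+Sol replicate 1, 2 without Mem replicate 2 or 4, 6 without Mem replicate 3 or 5 or WT replicate 1, 2 or 4, and 7 without WT replicate 3. Slc1a4 and Slc6a20b passed under every alternative tried. Smooth muscle markers rose in 4 of 6 (7155 to 12230 CPM in Mem), tuft markers in 5 of 5, endothelial markers in 3 of 5, and brush-border enzymes fell in 3 of 12 (4175 to 10560 CPM). Ileal enterocyte markers fell in 1 of 5, with sums of 4233 CPM in Mem replicate 1 and 692 to 1935 in the other Mem libraries. Proximal small intestine markers summed to 300.1 to 952 CPM in Mem, and of the 4 tested Fabp1 rose and Lct fell. The part of these in the transporter changes was not tested.

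Slc1a4 rose to 32.8 CPM in Mem replicate 1 and 52.2 to 58.4 in the other 4, all above the 15.4 to 24.1 of WT, a change of 1.41 ± 0.20 (log2, SE; edgeR adjusted p = 0.00065). Slc6a20b was at 0.491, 0.208, 0.251, 0.284 and 0.326 CPM in Mem, all below WT, and changed by -2.93 ± 0.57 (log2, SE; edgeR adjusted p = 0.00651). Both thus moved in all 5 Mem libraries. Slc5a4b was at 1.77, 0.445, 0.502, 0.355 and 0.326 CPM, with replicate 1 inside the WT range, and changed by -4.21 ± 0.93 (edgeR adjusted p = 0.0121). Slc7a9 was at 295, 187, 232, 188 and 250 CPM, all below WT, and fell by 0.79 ± 0.18 on the log2 scale (edgeR adjusted p = 0.0149). Without Mem replicate 2 or 4 these last calls were lost. Slc5a12 was at 6.29 CPM in replicate 1 and 0 to 0.692 in the other 4, and changed by -4.50 ± 1.15 (edgeR adjusted p = 0.0253), lost without Mem replicate 2, 3, 4 or 5 or WT replicate 1. Slc5a11 was at 13.2 CPM in replicate 1 and 1.25 to 4.40 in the others, and changed by -2.63 ± 0.70 (edgeR adjusted p = 0.0309), lost without Mem replicate 2, 3 or 4 or WT replicate 2.

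The other 6 Mem changes each lost their call without 5 or more of the 16 libraries. Slc16a8 fell by 1.61 ± 0.47 on the log2 scale, Slc5a6 by 1.49 ± 0.44 and Slc3a2 by 0.76 ± 0.23 (edgeR adjusted p = 0.0463, 0.0462 and 0.047). Slc16a12 rose by 1.38 ± 0.35, Slc2a10 by 0.77 ± 0.22 and Slc7a6 by 0.71 ± 0.21 (edgeR adjusted p = 0.0247, 0.0385 and 0.0444). Mem replicates 2 and 4 were among the libraries whose absence ended each of these 6.

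Several members that fell in Mem+Sol had a mean level in Mem between those of WT and Mem+Sol without passing in the full set of libraries. Which members made up the 29 calls without Mem replicate 1 was not followed, so not passing here is no evidence of no change. Slc6a19 was at 373, 123, 286, 198 and 259 CPM in Mem, Slc6a20a at 66.1, 20.8, 26.8, 28.0 and 33.7, and Slc16a10 at 103, 24.6, 28.8, 19.3 and 34.0. In all 3 genes Mem replicate 1 was the highest Mem library, and it reached the WT range for Slc6a19 and Slc16a10. Slc15a1 was at 278 ± 93.7 CPM, Slc3a1 at 96.8 ± 29.9, Slc7a7 at 152 ± 43.4, Slc5a8 at 156 ± 41.8 and Slc6a4 at 36.5 ± 6.99 (SD, n = 5). Slc7a8, at 45.7 ± 12.7 CPM in Mem, was within the spread of Mem+Sol and did not pass either. Carriers that were higher in Mem+Sol were at 131 ± 48.8 CPM (Slc2a1), 78.9 ± 16.7 (Slc16a3), 205 ± 38.2 (Slc16a1), 18.9 ± 3.56 (Slc7a5) and 6.34 ± 1.75 (Slc7a2) in Mem. Members that passed in neither group were at 1091 ± 247 CPM (Slc5a1), 4.95 ± 3.38 (Slc2a2), 35.6 ± 7.08 (Slc2a5), 6.00 ± 1.49 (Slc2a3), 299 ± 75.5 (Slc1a1), 183 ± 17.1 (Slc1a5), 12.01 ± 15.4 (Slc6a14), 157 ± 13.4 (Slc38a2), 42.4 ± 1.79 (Slc36a1) and 11.1 ± 2.88 (Slc15a2).

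Set directly against each other, Mem+Sol and Mem did not differ in any of the 89 members by edgeR, beside 0.0134% of all genes tested. At an unadjusted p under 0.05 there were 11 members, the lowest adjusted p was 0.317, and DESeq2 called 1. Leaving out Mem+Sol replicate 1 gave 1 call. A transporter that passed against WT in Mem+Sol and not in Mem is therefore not shown to differ between the transgenic groups.

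In Mem lung 7 members rose and 3 fell of 79 tested, which is 12.7% beside 9.46% of all 15885 genes tested (edgeR; 6.41% of all genes rose and 3.05% fell). Slc5a1, Slc6a20a and Slc7a11 rose most, and Slc38a4 fell most. The median log2 fold change was -0.09 over the members and -0.02 over all genes. The count was 4 without WT replicate 5 and 5 without Mem replicate 3 or 4. It was 6 without Mem+Sol replicate 4, and at most 13, without Mem+Sol replicate 2. Within batch 1 alone 6 passed and within batch 2 alone, with 2 libraries of each genotype, 0 passed, so no change held under every alternative.

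Slc5a1, which in lung returns glucose from the lining fluid, was at 4.48, 5.58, 5.17, 4.86 and 5.95 CPM in WT, at 9.17, 18.8, 13.2, 27.0 and 21.1 in Mem, and at 10.0, 15.0, 9.02 and 6.84 in Mem+Sol. All transgenic libraries lay above all WT libraries, and Mem replicate 1 was the lowest Mem library. The change in Mem was 1.58 ± 0.15 (log2, SE; edgeR adjusted p = 0.00011), with 1.73 in batch 1 and 1.42 in batch 2 (edgeR adjusted p = 0.00332 and 0.102). Slc6a20a was at 2.24, 2.33, 2.54, 3.13 and 3.22 CPM in WT and 6.01, 8.87, 7.78, 13.2 and 7.03 in Mem, with no overlap. It rose by 1.62 ± 0.29 (log2, SE; edgeR adjusted p = 0.00323), by 1.57 in batch 1 and 1.70 in batch 2. In Mem+Sol its level was 2.85, 7.53, 1.59 and 2.98 CPM, and only replicate 2 lay above the WT range. Slc7a11, which imports cystine for glutathione, was at 3.25 to 5.34 CPM in WT and 5.89, 14.1, 9.86, 17.04 and 7.10 in Mem. All Mem libraries were above WT, and it rose by 1.28 ± 0.29 (edgeR adjusted p = 0.0134; 1.35 in batch 1 and 1.25 in batch 2), lost without WT replicate 2 or 5. Mem replicate 4 was the highest library for these 3 genes.

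Slc15a3, a lysosomal carrier of peptides and histidine in immune cells, was at 27.8, 28.0, 26.4, 31.1 and 30.9 CPM in WT and 36.5, 42.95, 56.6, 50.8 and 35.6 in Mem, with no overlap. It rose by 0.62 ± 0.12 (log2, SE; edgeR adjusted p = 0.00642), by 0.75 in batch 1 and 0.51 in batch 2. On the opposite strand Tmem132a covers 28.1% of its exons, so part of its counts could belong there. Slc38a4, a carrier of neutral and cationic amino acids, was at 32.5, 36.9, 20.5, 18.9 and 33.3 CPM in WT and 17.1, 20.8, 11.8, 18.1 and 18.8 in Mem. The raw ranges overlapped, while with sex and batch in the model it fell by 0.80 ± 0.14 on the log2 scale (edgeR adjusted p = 0.00278), with -0.77 in batch 1 and -0.87 in batch 2. Slc5a12 was at 10.9 to 14.4 CPM in WT and 6.33 to 12.6 in Mem and fell by 0.53 ± 0.13 (edgeR adjusted p = 0.0241), with -0.79 in batch 1 and -0.15 in batch 2, lost without Mem replicate 3 or 4 or WT replicate 5.

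The other 4 changes in Mem lung were small or close to the threshold. Slc5a9, a glucose and mannose carrier at 0.261 ± 0.0906 CPM in WT, rose by 0.82 ± 0.24 (edgeR adjusted p = 0.0484; 0.72 in batch 1 and 1.02 in batch 2). Slc7a8 rose by 0.46 ± 0.13 (edgeR adjusted p = 0.0411; 0.47 and 0.49) and Slc7a5 by 0.40 ± 0.12 (edgeR adjusted p = 0.0488; 0.39 and 0.41). Slc6a15, a neutral amino acid carrier of neurons, fell by 0.49 ± 0.14 (edgeR adjusted p = 0.0436), with -0.65 in batch 1 and -0.33 in batch 2. Each of the 4 lost its call without 8 or more of the 14 libraries, WT replicate 5 among them.

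Markers moved in the same lung libraries. Goblet cell markers rose in 4 of 6, with sums of 12.8 to 20.5 CPM in WT, 289 to 1453 in Mem and 89.8 to 253 in Mem+Sol; Mem replicate 4 was highest. Leukocyte markers rose in 3 of 6 (586 to 649 against 692 to 868 CPM), endothelial markers fell in 2 of 5 (3534 to 3800 against 2550 to 3594 CPM), and airway club and ciliated markers fell in 1 of 5 (25540 to 32390 against 18930 to 28740 CPM). Alveolar type 2 markers rose in 1 of 5, with a summed level in Mem wholly above WT (19430 to 23520 against 24820 to 29560 CPM). Tuft markers rose in 1 of 5, Dclk1, and their sums did not overlap either (11.1 to 22.6 against 24.1 to 39.96 CPM). In the exocrine pancreas list 1 of 2 tested rose in Mem, Cela1 (1.57 to 2.81 against 2.09 to 2.96 CPM), and none passed among the 7 general epithelial, 6 smooth muscle and 3 proximal small intestine markers tested. No goblet, leukocyte, endothelial, airway, alveolar or tuft marker was at 0, and ileal enterocyte markers summed to at most 0.536 CPM in any lung library, with 1 or 2 of the 5 at 0 in a group. The part of these shifts in the transporter changes was not tested. Of the pathway lists, Kcne3, a potassium channel subunit of epithelia, rose by 1.38 ± 0.16 (edgeR adjusted p = 0.000211) and Fbp1 by 4.96 ± 0.91 (edgeR adjusted p = 0.00595).

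Against WT, Mem+Sol lung had 1 member that passed, which is 1.27% of 79 beside 0.844% of all genes (edgeR; 0.523% of all genes rose). Slc5a1 rose by 0.76 ± 0.16 (log2, SE; edgeR adjusted p = 0.0476), with 0.85 in batch 1 and 0.66 in batch 2 (edgeR adjusted p = 0.527 and 0.0998). This call was lost without Mem replicate 2, 3 or 5, Mem+Sol replicate 2, 3 or 4, or any WT library. The count of members was 4 without Mem replicate 1 and 5 without Mem+Sol replicate 1 or 2.

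Directly against Mem, Mem+Sol lung had 3 members higher and 4 lower, which is 8.86% beside 2.23% of all genes tested (edgeR; 0.862% of all genes were higher and 1.37% lower). Slc6a20a (-1.22 ± 0.29, edgeR adjusted p = 0.0464), Slc5a1 (-0.82 ± 0.15, 0.0221), Slc7a8 (-0.67 ± 0.14, 0.0284) and Slc15a3 (-0.56 ± 0.13, 0.0394), which had risen in Mem, were lower in Mem+Sol. Mem against WT and Mem+Sol against Mem share the Mem libraries, so these falls are not independent of the rises. Slc43a1, a large neutral amino acid carrier, was higher by 0.74 ± 0.15 (edgeR adjusted p = 0.0263). Slc16a9 was higher by 0.47 ± 0.10 (edgeR adjusted p = 0.0345). Slc43a3 was at 365, 337, 285, 397 and 361 CPM in Mem and 469, 430, 525.6 and 484 in Mem+Sol, higher in every library, by 0.43 ± 0.09 (edgeR adjusted p = 0.032). Its WT libraries lay at 379 to 448 CPM, a range that overlaps Mem+Sol, and none of the 3 higher members passed in Mem+Sol against WT. The count was 0 without Mem replicate 2 or Mem+Sol replicate 3 and 1 without Mem+Sol replicate 4. It was 2 without Mem replicate 3 or 4, 3 without Mem+Sol replicate 1, 4 without WT replicate 2 and 9 without Mem+Sol replicate 2. It was 0 within batch 1 and 17 within batch 2, where each genotype has 2 libraries, so none of the 7 held throughout.

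**Figure D4:**
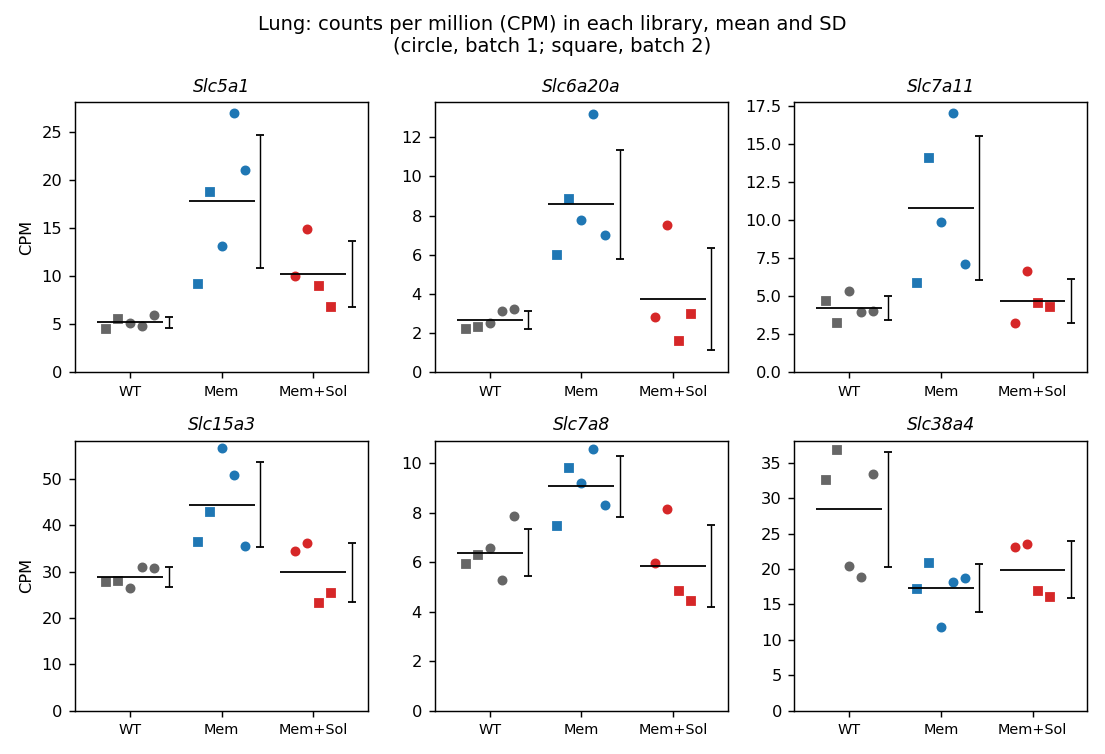
Level in CPM of selected transporters in each lung library by genotype, circles for batch 1 and squares for batch 2, on axes from 0, with a line for the mean and a bar for the SD. All Mem and Mem+Sol libraries lie above WT for Slc5a1, and all Mem libraries for Slc6a20a and Slc15a3.

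Most members that lead the ileal changes did not pass the test in lung. Slc2a1 was at 40.5 ± 8.43 CPM in WT, 37.5 ± 8.78 in Mem and 40.4 ± 3.51 in Mem+Sol, and Slc16a3 at 20.5 ± 4.27, 20.5 ± 5.21 and 17.6 ± 2.19 (SD). Slc3a2 was at 247 ± 25.9, 237 ± 18.5 and 250 ± 41.97 CPM, Slc6a14 at 106 ± 16.7, 99.1 ± 11.7 and 107 ± 23.3, and Slc15a2 at 49.8 ± 16.9, 52.9 ± 8.58 and 51.9 ± 16.6. In the same order of genotypes, Slc2a3 was at 19.8, 16.4 and 20.1 CPM, Slc1a1 at 35.0, 32.6 and 26.9, Slc1a5 at 228, 219 and 260, Slc38a2 at 271, 248 and 207, Slc36a1 at 38.5, 41.8 and 38.7, Slc16a1 at 60.6, 71.4 and 63.8, Slc16a10 at 23.5, 22.7 and 26.4, Slc7a2 at 81.5, 111 and 93.8, Slc7a7 at 23.6, 27.5 and 23.2, and Slc6a4 at 7.77, 6.72 and 8.76. The brush-border carriers Slc15a1, Slc3a1, Slc6a19 and Slc5a8 stayed at mean levels of 0.316 to 5.38 CPM in all 3 genotypes. None of these passed against WT. Slc2a2, Slc2a5 and Slc7a9 were not tested in lung, with mean levels of at most 0.180 CPM.

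Whether a genotype acted differently in lung and ileum was tested as an interaction in 1 model of all 30 libraries, over 96 members. For Mem, 5 members had a higher and 10 a lower effect in lung than in ileum, 15.6% beside 8.23% of all 16867 genes (edgeR; 3.56% higher and 4.67% lower). For Mem+Sol the numbers were 15 and 10, 26% beside 18.1% of all genes (6.55% higher and 11.6% lower). Carriers that fell in ileum and were not lower to the same degree in lung had a positive difference. The Mem+Sol effect on Slc6a20a was 3.25 ± 0.62 higher in lung (log2, SE; edgeR adjusted p = 0.000974), that on Slc5a12 5.31 ± 1.14 (edgeR adjusted p = 0.00242), and that on Slc16a10 2.597 ± 0.58 (edgeR adjusted p = 0.00323). The effect on Slc5a1 was 1.07 ± 0.34 higher in lung for Mem+Sol (edgeR adjusted p = 0.0294; lost without ileal WT replicate 3, lung Mem+Sol replicate 2 or 4, or lung WT replicate 2 or 5) and 1.46 ± 0.33 for Mem (edgeR adjusted p = 0.00706). The effect on Slc1a4 was lower in lung, with a log2 difference of -1.48 ± 0.22 for Mem (edgeR adjusted p = 0.00026) and -1.25 ± 0.23 for Mem+Sol (edgeR adjusted p = 0.000717), and for Mem+Sol the difference was -2.11 ± 0.49 for Slc16a3 and -2.06 ± 0.57 for Slc2a1 (edgeR adjusted p = 0.00428 and 0.013), the last lost without ileal Mem+Sol replicate 4. The Mem count was 26 without ileal Mem replicate 1, 7 without lung WT replicate 5, 8 without ileal Mem replicate 2, lung Mem replicate 3 or lung WT replicate 2, and 9 without ileal Mem replicate 4, ileal WT replicate 4 or lung WT replicate 3. The Mem+Sol count stayed between 18 and 32 when any library was left out.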

How the data were processed

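RNA was sequenced from terminal ileum and a post-caval lung lobe with poly-A selected libraries, per the labels' protocols. The authors deposited a table of read counts per gene for each tissue. CASAVA, TopHat2 and the build mm10 are named in the submitters' processing notes without versions; no source used here gives the counting tool, annotation or strand setting. All columns were mapped to samples, and 0 were left unused.

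Counts were tested with edgeR 4.0.16 (quasi-likelihood test, R 4.3.3, limma 3.58.1) after removal of low counts and scaling by the trimmed mean of M values, with sex as a covariate and, in lung, the sequencing batch. A gene was called at an adjusted p under 0.05 (Benjamini-Hochberg over all genes). The code was tested on simulated data. The joint model took both tissues. CPM were computed from the deposited counts with the scaled library sizes, and levels per kilobase use exon lengths of GENCODE M21. Depth is given with the groups; it limits genes of a few counts. Libraries of 1 group differed by more than sampling noise (chi-square per degree of freedom 12.4 to 318 over 61 pairs), so none was counted as a library sequenced again. The check cannot tell whether separate libraries came from 1 animal.

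The labels do not say that replicate numbers pair libraries, so the main tests were unpaired and the numbers entered only as an alternative. Residuals of same-numbered libraries correlated over 0.1 in every pair only for Mem+Sol against Mem in lung (0.121 to 0.354 over 4 pairs, whose libraries lie in opposite batches).

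Members and lists were chosen with earlier results of these data known. A set of 27 transporters was named in every comparison where tested, and beyond it the 10 largest increases and decreases among called members and all called members of a class with 5 or fewer. Alternatives were DESeq2 1.42.0, another normalization, no filter, no sex or batch term, 2 genotypes only, thinned counts, a replicate block, single batches and leaving out each library. Values of a few genes are not reported here, though counts over lists include them.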

Additional observations from a re-analysis of the deposited data

Results flagged for a closer look

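In 9 of 126 groups of values the level of a transporter in 1 library lay far from the others of its group. The cutoff used flags about 1 group in 20 by chance. In ileal Mem replicate 1, Slc5a4b was at 1.77 CPM with the other 4 Mem libraries at 0.326 to 0.502, Slc1a4 at 32.8 with the others at 52.2 to 58.4, and Slc7a2 at 3.34 with the others at 6.38 to 7.75, each on the side of WT. In ileal Mem+Sol replicate 1, Slc5a4a was at 4.49 CPM with the others at 0.0798 to 0.335, and Slc6a20a at 49.9 with the others at 6.41 to 11.1, again on the side of WT. Slc2a5 was at 62.3 CPM in ileal Mem+Sol replicate 2 and at 15.8 to 25.8 in the rest. Slc7a15 was at 257 CPM in ileal WT replicate 2 and 53.8 to 80.5 in the rest, and Slc6a20b at 4.93 CPM in ileal WT replicate 5 and 1.55 to 2.12 in the rest. In lung, Slc6a4 was at 11.1 CPM in Mem+Sol replicate 4 and at 7.65 to 8.15 in the other 3.

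The effect of Mem differed between tissues in 15 members by the interaction test of edgeR at an adjusted p under 0.05, given here as the effect in lung minus that in ileum on the log2 scale. It was positive for Slc5a12 (4.001), Slc6a20a (3.19), Slc16a8 (2.40), Slc7a8 (1.68) and Slc5a1 (1.46). Among others, it was negative for Slc6a2 (-3.30), Slc1a2 (-1.72), Slc38a4 (-1.63), Slc16a12 (-1.63), Slc1a4 (-1.48), Slc16a7 (-1.27), Slc43a1 (-0.93), Slc1a1 (-0.83) and Slc7a6 (-0.73). Of these, Slc1a4, Slc7a8, Slc6a20a, Slc16a12 and Slc5a1 passed under every alternative tried. Slc5a12 lost its call without ileal WT replicate 1, lung WT replicate 2 or lung WT replicate 5, and the others named here without 5 or more libraries each. Slc6a2 had 3 counts over all ileal WT libraries, so its fitted difference depends on the prior count. Slc38a4 had 2 to 14 counts and Slc1a2 3 to 12 in each ileal WT library. Slc16a8 had 2 to 14 counts in each lung library, too few for a test in lung alone, so its effect there was hardly measured.

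The effect of Mem+Sol differed between tissues in 25 members by the same test. It was positive for Slc5a12 (5.31), Slc6a20a (3.25), Slc6a20b (2.70), Slc16a10 (2.597), Slc16a5 (2.06), Slc5a6 (1.88), Slc6a19 (1.86), Slc43a2 (1.65), Slc6a4 (1.38), Slc7a7 (1.12), Slc2a4rg-ps (1.11), Slc5a1 (1.07), Slc3a2 (0.81), Slc6a6 (0.78) and Slc2a9 (0.75). Among others, it was negative for Slc6a2 (-3.31), Slc16a3 (-2.11), Slc2a1 (-2.06), Slc6a17 (-2.04), Slc2a4 (-1.86), Slc38a4 (-1.71), Slc1a2 (-1.69), Slc1a4 (-1.25) and Slc7a2 (-1.17). Under every alternative tried, Slc5a12, Slc6a20a, Slc16a10, Slc5a6, Slc43a2, Slc6a4, Slc7a7, Slc16a3, Slc38a4 and Slc1a4 passed. Slc6a20b lost its call without lung Mem+Sol replicate 4 or lung WT replicate 2, Slc2a9 without lung Mem+Sol replicate 3 or lung WT replicate 2, Slc6a2 without ileal WT replicate 5 and Slc2a1 without ileal Mem+Sol replicate 4. Other calls were lost without more of the 30 libraries: Slc2a4rg-ps without any of 20, Slc3a2 without any of 19, Slc6a6 without any of 18, Slc6a19 without any of 14, Slc1a2 without any of 8 and Slc5a1 without any of 5. Slc16a5, Slc2a4, Slc6a17 and Slc7a2 held without any single library and lost their call in 1 or 2 other settings. Slc6a20b had 1 to 20 counts in each lung library, too few for a test in lung alone, so its effect there was hardly measured. In each ileal WT library Slc38a4 had 2 to 14 counts and Slc1a2 3 to 12, so their ileal effects were imprecisely measured. Batch and tissue cannot be told apart in the joint model beyond the effect of genotype within each tissue.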

How the results depend on the processing

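Under every alternative, the counts of 44 members in Mem+Sol ileum and 25 Mem+Sol effects that differed between tissues moved by less than 1.5 times. With a library left out, the 44 became 32 to 46, lowest without Mem+Sol replicate 6, and the 25 became 18 to 32. Over all alternatives, values were followed for the called members, the called genes of the pathway lists and Tnfsf15. Of these, 3315 values kept their direction and side of the threshold, 711 kept their direction and lost the call, and 4 changed sign. All 4 belong to Tnfsf15 in ileum, which passed in no fit shown: against WT, Mem was at 0.063 with only the 2 genotypes compared, at 0.054 with the replicate block and between -0.526 and 0.0074 with a library left out (the last without WT replicate 2), and Mem+Sol was between -0.0284 (without WT replicate 1) and 0.581. The 12 members called in Mem ileum became 26 with DESeq2, 6 without a filter, 22 without the sex term, 20 with only the 2 genotypes compared and 19 with a replicate block, and 2 to 29 when each library was left out. The 0 of Mem+Sol against Mem in ileum became 1 with DESeq2 and 0 to 1 with a library left out. The 10 of Mem lung became 5 without the batch term, 6 in batch 1, 0 in batch 2 and 4 to 13 with a library left out. The 1 of Mem+Sol lung became 7 with DESeq2, 2 without a filter, 0 without the batch term, 0 in batch 1, 10 in batch 2 and 0 to 5 with a library left out. The 7 of Mem+Sol against Mem in lung became 3 without the sex term, 0 with only the 2 genotypes compared, 0 without the batch term, 0 in batch 1, 17 in batch 2 and 0 to 9 with a library left out. The 15 Mem effects that differed between tissues became 8 with thinned counts and 7 to 26 with a library left out. The cause of these shifts was not tested. Single batches, 2 genotypes only and leaving out a library also reduce the number of samples. With the replicate number as a block, the counts were 19, 36 and 0 in ileum, 7, 1 and 10 in lung, and 19 and 17 for the interactions. Residuals of same-numbered libraries correlated at -0.35 to 0.552 in ileum (8 of 15 pairs over 0.1) and -0.317 to 0.354 in lung (5 of 13). Every pair lay over 0.1 only for Mem+Sol against Mem in lung, where the main test was unpaired and the 7 called members all passed with the block too. A library matched its own number best in 11 of 30 and 6 of 26 cases. Depth limits genes of a few counts in ileal WT, such as Slc6a2, and the strand of the counts is not known.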
